A study of Homo sapiens with 12 samples.

Results

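The genes described here were the epidermal growth factor (EGF) receptor family and its ligands: the receptors EGFR, ERBB2 and ERBB3, the ligands TGFA, AREG, EREG, HBEGF, BTC and EGF, and the receptor inhibitor ERRFI1. They were chosen by name, and all 10 were found by their Ensembl identifiers among the 59424 genes of both deposited tables. RNA was sequenced from a pair of human prostate cancer cell lines with altered levels of GALNT7, an enzyme that takes part in the first step of mucin-type O-glycosylation. CWR22Rv1 cells, an androgen receptor positive line grown from a xenograft, carried a lentiviral control shRNA (shControl) or a GALNT7 shRNA (GALNT7 KD). DU145 cells, a line from a metastasis that does not rely on the androgen receptor, carried a lentiviral open reading frame control (OE control) or GALNT7 itself (GALNT7 OE). With 3 biological replicates for each of these 4 groups, 12 libraries were analysed. All were stable lines made by lentiviral transduction, the controls included, and no other treatment is given in the labels.

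ERBB receptors sit in the plasma membrane and pair up when a ligand binds, after which their kinase domains signal through RAS and the MAP kinases and through PI3 kinase and AKT. ERBB2 has no known ligand of its own and acts as a partner, and ERBB3 has little kinase activity and signals through its partners. The ligands are made as membrane-bound precursors that metalloproteases release, and in prostate epithelium EGFR and its ligands are known for driving growth and survival.

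Recovered reads per library numbered 18364512 to 22264533 for CWR22Rv1 and 21628718 to 24356910 for DU145. GALNT7 fell in the knockdown (999 ± 122 to 461 ± 53.7 normalised counts, SD, n = 3) and rose in the overexpression (964 ± 75.8 to 2181 ± 176), with limma adjusted p = 0.0051 and 8e-05. The androgen receptor was at 9280 normalised counts in shControl cells and 2.69 in OE control cells, and the epithelial keratin KRT8 averaged 10242 or more in each of the 4 groups. Other epithelial markers moved: EPCAM (log2 fold change -0.71, adjusted p = 0.013) and KRT18 (-0.35, 0.024) fell in the knockdown, and in the overexpression EPCAM rose (0.62, 0.0016) and CDH1 fell (-0.58, 0.0092). Their part in the other results was not tested. Of 17906 genes tested in the knockdown, 9.06% passed an adjusted p of 0.05 (5.28% higher and 3.79% lower). Of 18705 tested in the overexpression, 43.5% passed (22.9% higher and 20.5% lower). Higher genes made up 52.8% of the calls there, and 41.6% after scaling libraries to their 75th percentile, which moved the median of all genes to -0.11 on the log2 scale. With 3 libraries against 3, an exact permutation test of 1 gene cannot give a p below 0.1. In bulk RNA, fewer cells of a kind and less RNA per cell cannot be told apart.

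To see which receptors and ligands each line carried, levels were set on a length scale, as RPKM (recovered reads scaled to the library total, per kb of exon), which allows genes to be compared with each other. In shControl cells EGFR led with 89.5 ± 13.0 (SD, n = 3), followed by ERRFI1 at 33.3 ± 0.824, ERBB3 at 21.1 ± 0.257 and ERBB2 at 8.93 ± 1.05. These 4 genes did not overlap each other in any pair of libraries of that group. The ligands were far below their receptors: HBEGF stood at 2.44 ± 0.120, TGFA at 0.380 ± 0.109 and EGF at 0.222 ± 0.246, and the last 2 overlapped. AREG, EREG and BTC gave 6, 7 and 11 reads over all 3 shControl libraries and 1, 8 and 2 reads over the GALNT7 KD libraries. Those 3 ligands were therefore close to the detection limit in CWR22Rv1 cells, where 0 reads in a library still allow up to 3, by counting error alone, and no fold change is given for them.

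In OE control DU145 cells the order was different. ERRFI1 was highest at 102 ± 0.702 RPKM (n = 3) and the ligand AREG came next at 56.6 ± 0.744, above EGFR at 46.6 ± 0.512. EREG was at 24.9 ± 1.12 and ERBB2 at 19.6 ± 0.881, but their order turned when the longest annotated transcript gave the length (30.8 for EREG and 41.1 for ERBB2). TGFA at 11.5 ± 2.22 and ERBB3 at 9.65 ± 1.15 overlapped, while HBEGF was at 4.37 ± 0.770, BTC at 2.42 ± 0.415 and EGF at 0.878 ± 0.274. All 6 ligands thus gave reads in every DU145 library. The tables of the lines were scaled separately, so these levels are shown side by side and were not tested against each other.

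**Figure D1:**
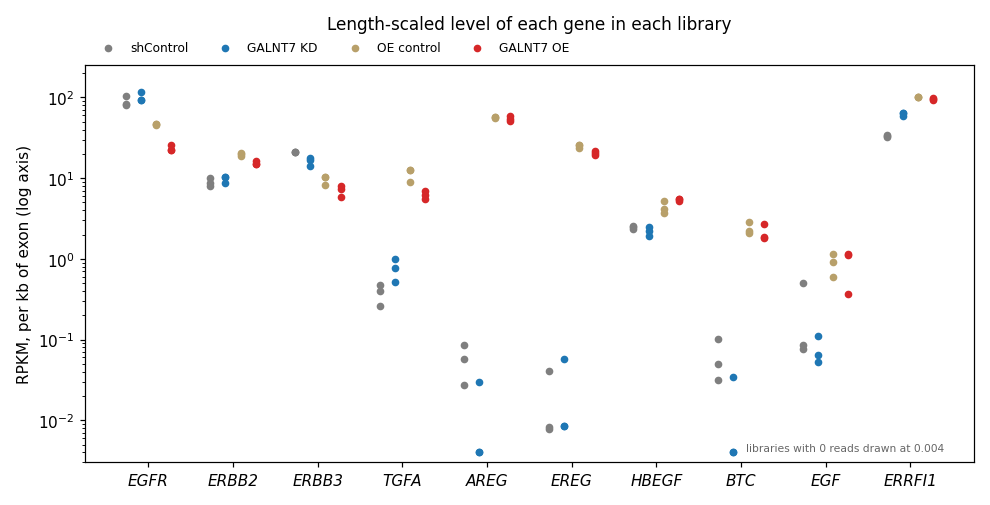
Level of the 10 genes in each of the 12 libraries, as RPKM on a log axis, with libraries at 0 reads drawn at the bottom. Grey and blue points are shControl and GALNT7 KD CWR22Rv1 cells, and tan and red points are OE control and GALNT7 OE DU145 cells. AREG and EREG lie below 0.1 in every CWR22Rv1 library and above 19 in every DU145 library.

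EGFR is a receptor for these ligands (EGFR, ENSG00000146648, GRCh38 chr7:55019021-55211628, plus strand). In OE control cells its normalised counts were 13034, 12743 and 13051, and in GALNT7 OE cells they were 6272, 7202 and 6398. Every overexpressing library lay far below every control library. EGFR RNA fell by 48.8% on the means, with a log2 fold change of -0.97 ± 0.06 (SE, on log2 of the normalised count plus 1) and limma adjusted p = 3e-05. In CWR22Rv1 cells EGFR stood at 20152, 25765 and 20289 in shControl and at 22990, 28306 and 22568 in GALNT7 KD. Replicate 2 was highest in both groups and the groups overlapped. The log2 fold change was 0.16 (95% interval -0.13 to 0.45, adjusted p = 0.46), so the change did not pass the threshold and its sign was not resolved by this fit.

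ERBB2, the partner receptor (ENSG00000141736, chr17:39687914-39730426, plus strand), also fell in DU145 cells. It stood at 4653, 4556 and 4267 normalised counts in OE control and at 3768, 3487 and 3553 in GALNT7 OE. The groups did not overlap, and the log2 fold change was -0.32 ± 0.05 (adjusted p = 0.003). The ratio of EGFR to ERBB2 within a library, which does not depend on how libraries were scaled, was 2.80, 2.80 and 3.06 in OE control and 1.66, 2.07 and 1.80 in GALNT7 OE. The ratio was lower in each overexpressing library than in each control, with the smallest p that 3 against 3 can give (exact permutation test, 2-sided, p = 0.1). Given the ranges of both genes above, this ratio could not overlap. It restates that EGFR fell further than ERBB2 and adds no evidence of its own. In the knockdown ERBB2 was at 1629 to 2051 in shControl and 1795 to 2100 in GALNT7 KD, with log2 fold change 0.14 (95% interval -0.11 to 0.38, adjusted p = 0.47). MIEN1 and PGAP3, genes on the other strand, share 571 and 194 of the 10321 exon bases of ERBB2, and whether the quantification used strand is not given in the sources used here.

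ERBB3, the receptor that binds neuregulins (ENSG00000065361, chr12:56076799-56103505, plus strand), was the 1 receptor that passed the threshold in both lines. In CWR22Rv1 cells it was at 3788, 3797 and 3711 normalised counts in shControl and at 3138, 2946 and 2536 in GALNT7 KD. The groups did not overlap, the log2 fold change was -0.40 ± 0.08 and the adjusted p was 0.032. Chromosome 12 as a whole was shifted in this comparison: the median over its 922 tested genes was -0.28 on the log2 scale, against -0.01 for all genes, and 35.2% of them fell below ERBB3. After centring each library on its chromosome medians, ERBB3 had a log2 fold change of -0.19 and adjusted p = 0.25, which ends the call. The call was also lost on leaving out shControl replicate 1, 2 or 3 (adjusted p = 0.11, 0.09 and 0.091) or GALNT7 KD replicate 2 (0.067).

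In DU145 cells ERBB3 was at 1673, 2077 and 2051 in OE control and at 1511, 1643 and 1201 in GALNT7 OE. The groups did not overlap, although the lowest control and the highest overexpressing library were close. The log2 fold change was -0.42 ± 0.14 (adjusted p = 0.044), while the 940 tested genes of chromosome 12 had a median of 0.07. That call was lost without OE control replicate 2 or 3 (adjusted p = 0.13 and 0.12) or GALNT7 OE replicate 1 or 3 (0.075 and 0.098), and in 7 of 18 alternatives in all, among them no filter (0.052) and no eBayes trend (0.086). A gene model on the same strand, AC034102.2, shares 31 of the 9039 exon bases of ERBB3 and 458 of its own 489 with PA2G4. Its mean went from 2152 to 1629 normalised counts in the knockdown and from 555 to 1118 in the overexpression.

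**Figure D2:**
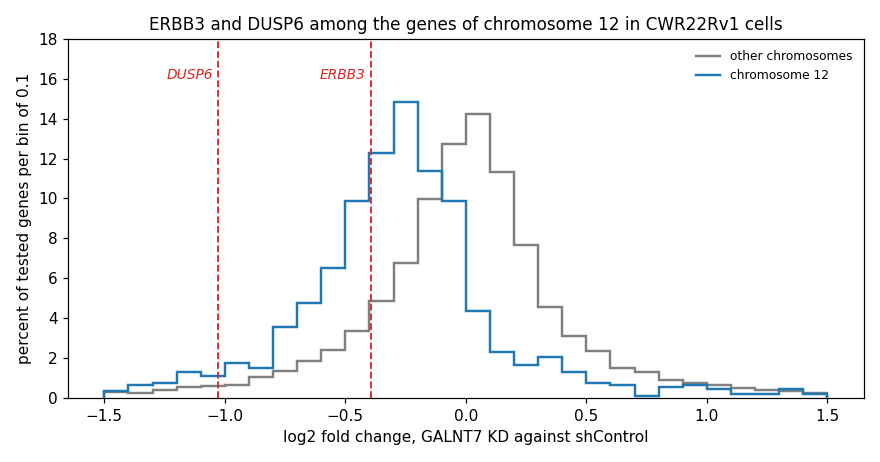
Distribution of log2 fold changes in GALNT7 KD against shControl CWR22Rv1 cells, as the percent of tested genes in bins of 0.1, for chromosome 12 (blue) and the other chromosomes (grey). The dashed lines mark ERBB3 at -0.40, inside the bulk of chromosome 12, and DUSP6 at -1.03, in its lower tail.

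Among the ligands, TGFA, which binds EGFR (ENSG00000163235, chr2:70447280-70554193, minus strand), fell with its receptor in DU145 cells. It was at 1408, 977 and 1401 normalised counts in OE control and at 608, 773 and 695 in GALNT7 OE. No overexpressing library reached the lowest control, and the log2 fold change was -0.85 ± 0.16 (adjusted p = 0.0054). In CWR22Rv1 cells TGFA was low, at 39.2, 25.6 and 46.7 in shControl and at 75.4, 97.1 and 51.1 in GALNT7 KD. Each knockdown library was above each control library there, but the log2 fold change of 0.98 (95% interval 0.22 to 1.74) did not pass the threshold (limma adjusted p = 0.11).

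The promoters of EGFR and TGFA are shown because RNA of both genes fell the most among the 10 genes in GALNT7 OE cells. Each window runs from 250 bases before to 50 after a start listed in RefSeq (GRCh38.p14). The windows are chr7:55018767-55019066 on the plus strand for EGFR and chr2:70553777-70554076 on the minus strand for TGFA. Both genes had 2 windows, and the one nearest the annotated start of the gene is shown. Capitals mark the GC box letters GGGCGG on either strand, the core of the Sp1 motif. Windows were available for 9 of the 10 genes.
EGFR: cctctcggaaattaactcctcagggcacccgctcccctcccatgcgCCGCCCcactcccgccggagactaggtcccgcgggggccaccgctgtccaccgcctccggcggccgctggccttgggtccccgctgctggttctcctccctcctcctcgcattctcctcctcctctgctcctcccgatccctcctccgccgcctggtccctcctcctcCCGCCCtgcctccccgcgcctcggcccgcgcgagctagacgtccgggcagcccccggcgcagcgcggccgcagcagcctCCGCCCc
TGFA: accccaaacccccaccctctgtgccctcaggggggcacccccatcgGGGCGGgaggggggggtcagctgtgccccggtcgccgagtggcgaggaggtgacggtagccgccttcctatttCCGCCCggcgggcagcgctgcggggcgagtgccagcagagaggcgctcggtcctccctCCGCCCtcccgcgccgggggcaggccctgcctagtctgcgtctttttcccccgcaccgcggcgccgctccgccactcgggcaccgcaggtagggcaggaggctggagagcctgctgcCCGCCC
EGFR held 3 such matches and TGFA 4, both windows were 75.3% G or C, and neither held TATAAA on either strand. The GC box letters occurred in 45.0% of all 35116 promoter windows of this length, so their presence is common.

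AREG and EREG, ligands of EGFR that lie on the same strand of chromosome 4 (AREG, ENSG00000109321, chr4:74445134-74455009; EREG, ENSG00000124882, chr4:74365143-74388751), are shown for their shared pattern of high levels in DU145 and few reads in CWR22Rv1 cells. Their windows are chr4:74444886-74445185 and chr4:74364895-74365194, with the TATA letters TATAAA, the cyclic AMP response element TGACGTCA and GGGCGG in capitals.
AREG: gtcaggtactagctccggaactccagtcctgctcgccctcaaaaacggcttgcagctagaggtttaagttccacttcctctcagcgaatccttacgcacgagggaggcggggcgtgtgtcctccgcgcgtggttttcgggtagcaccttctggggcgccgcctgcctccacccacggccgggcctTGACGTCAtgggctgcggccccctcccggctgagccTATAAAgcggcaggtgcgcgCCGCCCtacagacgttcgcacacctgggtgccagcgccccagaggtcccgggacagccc
EREG: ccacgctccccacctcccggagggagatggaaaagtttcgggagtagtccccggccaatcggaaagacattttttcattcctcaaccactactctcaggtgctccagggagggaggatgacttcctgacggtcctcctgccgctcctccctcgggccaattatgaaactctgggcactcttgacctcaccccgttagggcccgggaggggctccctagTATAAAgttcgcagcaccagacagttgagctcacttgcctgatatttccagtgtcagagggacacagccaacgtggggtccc
Both held 1 TATAAA match, a motif found in 11.5% of all windows on either strand. AREG also held TGACGTCA, found in 1.85% of windows, and 1 GC box, and EREG held neither.

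AREG did not move detectably with GALNT7 in DU145 cells. It was at 2099, 2035 and 2077 normalised counts in OE control and at 1916, 2016 and 2190 in GALNT7 OE, with overlapping groups and a log2 fold change of -0.02 (95% interval -0.17 to 0.12, adjusted p = 0.80). EREG was at 3230, 3240 and 2993 in OE control and at 2504, 2823 and 2693 in GALNT7 OE. Its groups did not overlap, and it fell by 0.24 ± 0.06 on the log2 scale (adjusted p = 0.019), a call that was lost without OE control replicate 1 or 2 (0.066 each). The ratio of EREG to AREG was 1.54, 1.59 and 1.44 in OE control and 1.31, 1.40 and 1.23 in GALNT7 OE, without overlap (exact permutation p = 0.1).

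HBEGF, a heparin-binding ligand of EGFR and ERBB4 (ENSG00000113070, chr5:140332843-140346631, minus strand), was at 249, 279 and 350 in OE control and at 376, 379 and 354 in GALNT7 OE. The groups did not overlap, and the log2 fold change of 0.35 (95% interval 0.03 to 0.67) missed the threshold (adjusted p = 0.077), but passed without OE control replicate 3 (0.018). The ratio of HBEGF to TGFA was 0.177, 0.286 and 0.25 in OE control and 0.618, 0.49 and 0.508 in GALNT7 OE. HBEGF and TGFA each separated these groups already, in opposite directions, so the ratio could not overlap and adds no evidence of its own. In the knockdown HBEGF was at 138 to 152 in shControl and 113 to 147 in GALNT7 KD, with log2 fold change -0.16 (adjusted p = 0.53).

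BTC, betacellulin (ENSG00000174808, chr4:74744759-74794686, minus strand), stood at 133, 180 and 140 in OE control and 116, 170 and 119 in GALNT7 OE, a log2 fold change of -0.17 (95% interval -0.64 to 0.30, adjusted p = 0.53). EGF (ENSG00000138798, chr4:109912884-110012266, plus strand) had the widest 95% interval among those of the 10 genes that were tested, in both lines. It was at 124, 79.8 and 154 in OE control and at 51.1, 155 and 161 in GALNT7 OE, and its mean was 2.47% higher while its mean log2 fold change was -0.08 (adjusted p = 0.90). In shControl cells replicate 2 had 61.0 against 10.3 and 9.2 in the others, and GALNT7 KD cells had 7.7, 6.4 and 13.5. No change of BTC or EGF was resolved, and for EGF the interval in DU145 cells ran from -1.21 to 1.04.

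ERRFI1 (also called MIG6), a cytosolic protein that binds the kinase domain of EGFR and blocks it (ENSG00000116285, chr1:8004404-8026308, minus strand), showed the clearest change in CWR22Rv1 cells. It was at 2829, 2691 and 2729 normalised counts in shControl and at 5362, 5250 and 4914 in GALNT7 KD. Every knockdown library was far above every control library, a rise of 88.3% on the means, with a log2 fold change of 0.91 ± 0.05 (adjusted p = 0.00044). The ratio of ERRFI1 to EGFR rose from 0.140, 0.104 and 0.134 in shControl to 0.233, 0.185 and 0.218 in GALNT7 KD, without overlap (exact permutation p = 0.1). ERRFI1 had already separated these groups and EGFR varied too little to bring overlap, so the ratio adds no evidence of its own. In DU145 cells, where ERRFI1 was already the highest of the 10 genes, it was at 9467, 9346 and 9505 in OE control and at 8872, 9127 and 9485 in GALNT7 OE. Those groups overlapped and the log2 fold change was -0.04 (95% interval -0.13 to 0.04, adjusted p = 0.38). With 75th percentile scaling ERRFI1 had -0.14 and passed (adjusted p = 0.016).

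**Figure D3:**
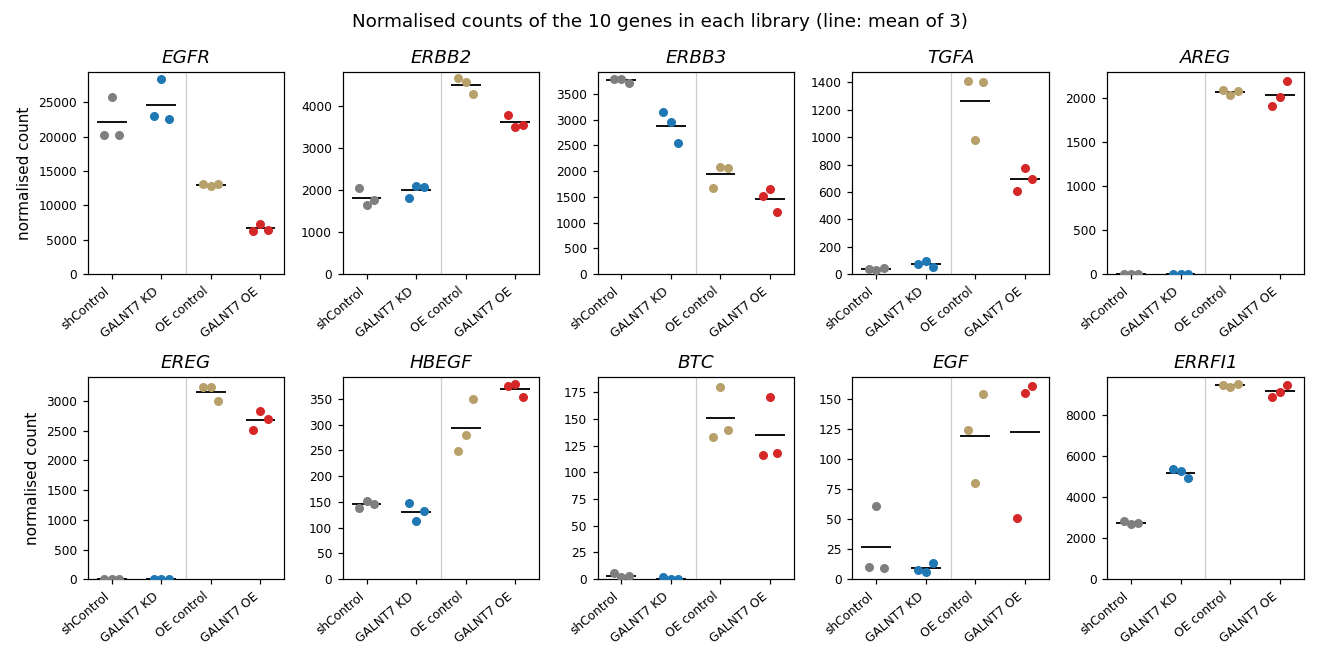
Normalised counts of the 10 genes in each of the 12 libraries, 1 panel per gene with its own axis from 0; lines are means of 3. The 2 groups left of the divider are CWR22Rv1 cells and the 2 on the right are DU145 cells. EGFR and TGFA drop between OE control and GALNT7 OE, and ERRFI1 climbs between shControl and GALNT7 KD, each with no overlap.

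Counted together, 7 of the 10 genes were tested in the knockdown, where 1 passed as higher (ERRFI1), 1 as lower (ERBB3) and 5 did not pass, against 9.06% of all tested genes called. Their median log2 fold change was 0.14, and 3 of them (ERBB3, TGFA and ERRFI1) had groups without overlap, against 32.5% of all genes. In the overexpression all 10 were tested: 5 passed as lower (EGFR, ERBB2, ERBB3, TGFA and EREG), 0 as higher and 5 did not pass, against 43.5% of all tested genes called and 20.5% called lower. For the direction with 0 calls by limma, 1 gene (HBEGF) had an unadjusted p under 0.05, and edgeR and DESeq2 each gave 0. The median was -0.20 over the 10 genes and -0.01 over all genes, and 6 of the 10 had groups without overlap, against 55.3% of all genes. Among 11 markers of fibroblasts, blood, endothelium and neuroendocrine cells, the summed normalised count was 144 to 177 in shControl, 164 to 213 in GALNT7 KD, 399 to 549 in OE control and 147 to 236 in GALNT7 OE. CD3E was at 0 in all 12 libraries and CHGA and INSM1 in all DU145 libraries. In the overexpression COL1A1 went from 334 to 90.6 and CD14 from 90.4 to 28.1, while SYP rose from 17.1 to 38.9 (adjusted p = 0.017) and PECAM1 averaged 19.3 in GALNT7 OE (log2 fold change 1.08, adjusted p = 0.41). The part of these markers in the results was not tested.

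**Figure D4:**
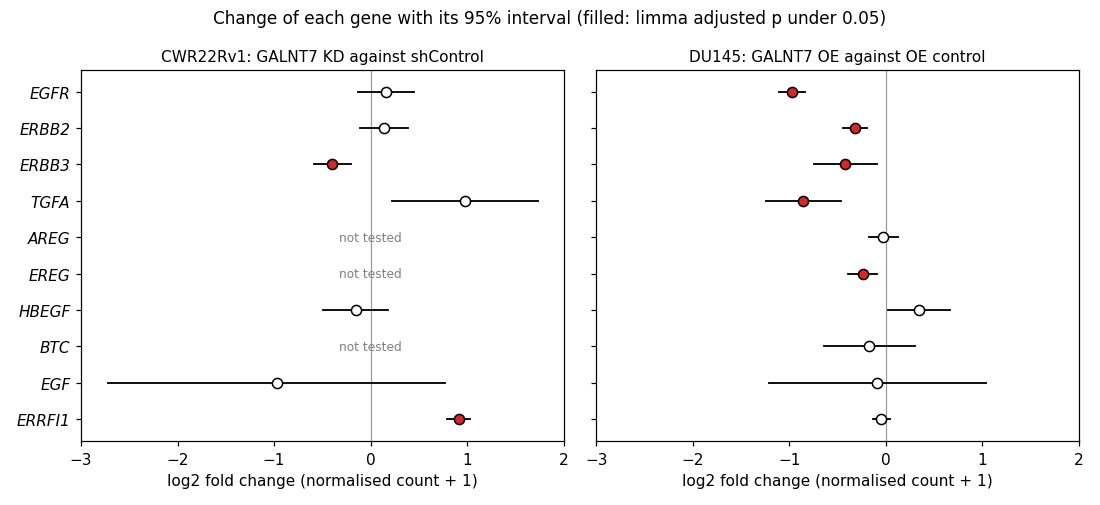
Log2 fold change of each gene with its 95% interval from limma, for GALNT7 KD against shControl (left) and GALNT7 OE against OE control (right); filled points passed an adjusted p of 0.05. ERRFI1 is the filled point on the higher side in the knockdown, and all 5 filled points in the overexpression lie on the lower side.

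The fourth receptor and the remaining ligands were sparse. ERBB4 was at 38.5 to 203 normalised counts in CWR22Rv1 cells, with adjusted p = 0.55, and was the 1 gene of this list of 6 that could be tested there. In DU145 cells ERBB4 was at 0, 2.04 and 112 in OE control and at 5.01, 2.77 and 3.15 in GALNT7 OE, so that 1 control library held nearly all of its reads. The neuregulin NRG1, a ligand of ERBB3 and ERBB4, rose there from 22.9 to 56.5 (log2 fold change 1.22, adjusted p = 0.03), as 1 of 4 tested genes. That call was lost without OE control replicate 1 or 3 (adjusted p = 0.077 and 0.091) or GALNT7 OE replicate 2 or 3 (0.092 and 0.096).

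Of the genes that release ligands from the membrane, 2 of 6 tested rose in the knockdown and none fell, against 5.28% and 3.79% of all genes. They were the metalloproteases ADAM9 (log2 fold change 0.39, adjusted p = 0.0094, or 0.051 without the eBayes trend) and ADAM15 (0.35, 0.016). The ADAM15 call was lost in 3 of 18 alternative analyses, with adjusted p up to 0.077. Among these were leaving out shControl replicate 1 (0.069) or GALNT7 KD replicate 1 (0.071). In the overexpression, with 43.5% of all genes called, 1 of 7 rose, ADAM12 (1.25, 0.018), and 3 fell: RHBDF1, an inactive rhomboid protease (-0.80, 0.00053), ADAM15 (-0.42, 0.00027) and ADAM10, the main sheddase of EGF and BTC (-0.13, 0.046). The ADAM12 call was lost without OE control replicate 3 or GALNT7 OE replicate 2 (0.056 each), and the ADAM10 call in 10 of 18 alternative analyses. ADAM17, the main sheddase of TGFA and AREG, had 0.03 and 0.09 and passed in neither comparison.

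Of the adaptors and relays of the signal, 0 of 23 tested passed by limma in the knockdown, against 9.06% of all genes. Of these, 6 had an unadjusted p under 0.05, 5 of them lower, while edgeR called 1 (PTPN11) and DESeq2 called 2 (PTPN11 and BRAF). PTPN11 lies on chromosome 12 and had a log2 fold change of -0.31 there. In the overexpression 6 of 23 rose and 5 fell, near the 22.9% and 20.5% of all genes, with a list median of 0.11. Those that rose included the RAS gene NRAS (0.76, adjusted p = 5.6e-05) and the phosphatase PTPN11 (0.46, 0.00058). The lowest were the adaptor GAB2 (-0.85, 0.0004), the phospholipase PLCG1 (-0.48, 0.0029) and the PI3 kinase subunit PIK3R2 (-0.33, 0.044), the last of which lost its call in 9 of 18 alternatives. HRAS was not analysed here.

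Among 17 genes listed as negative regulators of the receptors and of RAS, 1 rose in the knockdown and 0 fell. This share was below the 9.06% of all genes. The 1 gene that rose was the ubiquitin ligase CBLC (0.53, 0.029), whose call was lost on leaving out any single library (adjusted p 0.062 to 0.11). In the overexpression CBLC went the other way, from 417 to 184 normalised counts (-1.19, 0.00055). LRIG1, a membrane protein that promotes the degradation of ERBB receptors, fell from 853 to 347 (-1.32, 0.0031), and the phosphatase PTPN1 fell as well (-0.68, 3.4e-05). The RAS GTPase-activating protein RASA1 (0.97, 0.00015) and UBASH3B (0.86, 0.00012), a binding partner of CBL, rose. Whether UBASH3B restrains the receptors in these cells was not tested. In all, 2 of 17 rose and 4 fell, a smaller share than the 43.5% called among all genes, with a list median of 0.12.

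Of 10 genes that report MAP kinase output, DUSP6, the ERK phosphatase, was at 1309, 1245 and 1212 normalised counts in shControl and at 630, 601 and 615 in GALNT7 KD. In DU145 cells it was at 1451, 1589 and 1487 in OE control and at 726, 749 and 712 in GALNT7 OE. Neither pair of groups overlapped, and the log2 fold changes were -1.03 ± 0.07 (adjusted p = 0.0007) and -1.05 ± 0.06 (3.4e-05). DUSP6 lies on chromosome 12, where 6.4% of the tested genes had a log2 fold change below that of DUSP6 in the knockdown, and centring on chromosome medians left it called.

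In the knockdown 4 of 10 output genes fell and 0 rose, against 3.79% and 5.28% of all genes. These were DUSP6, cyclin D1 (CCND1, -0.39, 0.018) and the feedback inhibitors SPRY4 (-0.38, 0.043) and SPRY2 (-0.37, 0.045). Leaving out single libraries ended the CCND1 call in 3 of 6 cases, without shControl replicate 1 or 3 or GALNT7 KD replicate 1 (0.067 to 0.074). Over all 18 alternative analyses that call was lost in 4, with adjusted p up to 0.078. The SPRY4 call was kept only without GALNT7 KD replicate 3 and the SPRY2 call in no case (0.072 to 0.14). In the overexpression 4 of 10 fell and 2 rose, against 20.5% and 22.9% of all genes. The ephrin receptor EPHA4 (-1.72, 0.0019) and the phosphatases DUSP4 (-1.37, 2.3e-05) and DUSP6 were lowest. SPRY2 fell there as well, from 1484 to 979 normalised counts (-0.60, 0.00016). The ETS factor ETV4 (0.65, 0.0028) and EPHA2 (0.64, 0.0028) were higher. The list median was -0.25 in the knockdown and -0.27 in the overexpression, against -0.01 for all genes in each.

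**Figure D5:**
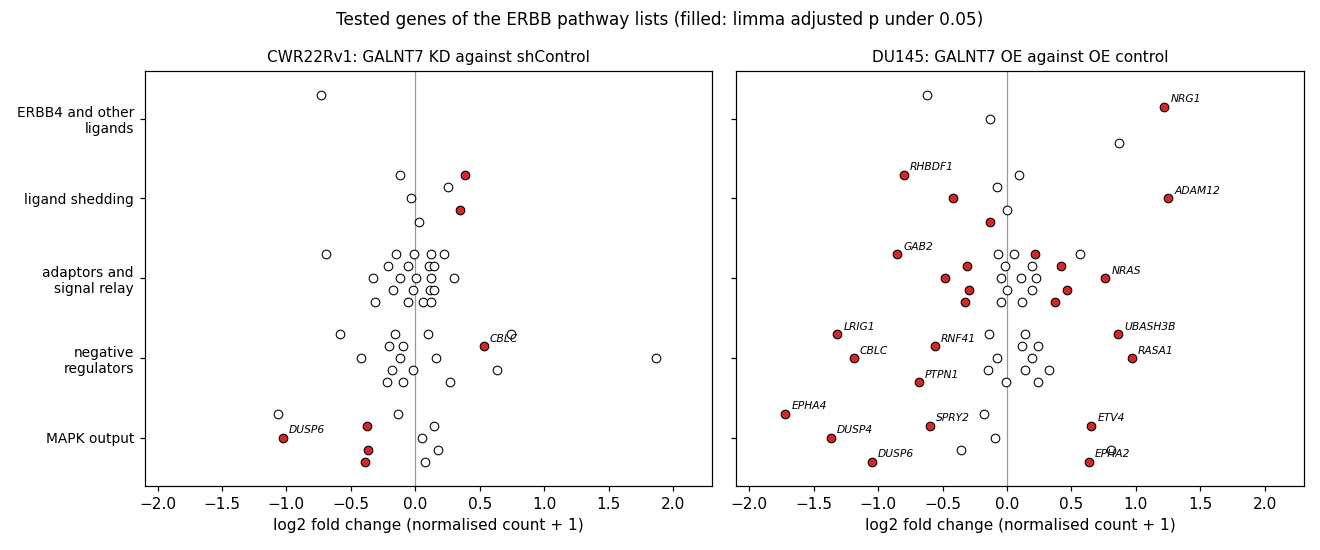
Log2 fold change of the reported tested genes of 5 ERBB pathway lists, in GALNT7 KD against shControl (left) and GALNT7 OE against OE control (right); filled points passed an adjusted p of 0.05 and are named where the change exceeds 0.5. In the knockdown DUSP6 stands at -1.03 with every relay gene unfilled, and in the overexpression filled points lie on both sides of 0.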

How the data were processed

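RNA was sequenced from stranded mRNA libraries of CWR22Rv1 and DU145 cells. The authors deposited normalised counts, a signal in which each library's reads per gene are divided by its own size factor, in 1 table per cell line. The submitters' processing notes name R 3.5.3, FastQC, Salmon, DESeq2 and hg38, and give no role for each. The smallest value above 0 in a library was taken as 1 read, and 100% of values were then whole (tolerance 0.01). Depth is given with the results. Averaged over the tested genes, replicates spread beyond counting error: the mean chi-square per gene between them was 8.85 to 24.2. That average does not describe genes with few reads.

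Gene names, positions and exon lengths came from GENCODE 29 (GRCh38), which held 94.4% of the identifiers, and promoters from RefSeq. Each cell line was fitted separately with limma 3.58.1 (eBayes with trend, R 4.3.3) on the log2 of the normalised count after adding 1. Genes needed a mean of at least 5, with Benjamini-Hochberg adjustment over all tested genes and a threshold of 0.05. AREG, EREG and BTC did not reach that mean in CWR22Rv1 cells. edgeR 4.0.16 and DESeq2 1.42.0 were run on recovered reads as alternatives, beside other pseudocounts, filters, scalings, a replicate block, chromosome centring and each library left out. The fits were also run on simulated data with a single spread setting for all genes, which checks the code and not these results.

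The genes and lists were chosen with earlier results of these data known. All 10 genes are named. From each other list, genes past the threshold with a mean of at least 50 are named, at most 3 per direction and comparison; 1 relay gene is counted but not reported here. SPRY2, NRG1, ERBB4, ADAM17, BRAF, the choice of marker genes and the ratios were picked after their values were seen. The genes most like each receptor were found by correlation.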

Additional observations from a re-analysis of the deposited data

How the results depend on the processing

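Of 47 gene values with a test, 29 kept their direction and their side of the threshold in every alternative, among them EGFR, ERBB2 and TGFA in the overexpression and ERRFI1 and DUSP6 in the knockdown. Over all 845 recomputed values, 760 were unaltered in this sense, 76 lost a call, 3 gained one and 6 changed sign. The sign changes were in genes without a call in the overexpression: AREG had -0.0746 to 0.0217 on leaving out single libraries, positive without GALNT7 OE replicate 1. EGF had 0.0903 with quantile scaling, 0.0307 with edgeR, 0.0352 with DESeq2 and -0.36 to 0.45 on leaving out single libraries, positive without OE control replicate 3 (0.12) or GALNT7 OE replicate 1.

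Of the 1623 genes called in the knockdown, the count was 996 without the eBayes trend, 2602 with DESeq2, 392 at a threshold of 0.01 and 525 to 1332 on leaving out single libraries. The 2 ERBB genes called there became 1 without the trend, with chromosome centring and at 0.01, and 1 to 2 on leaving out single libraries. In the overexpression the count of 8132 was 5303 at 0.01 and 6749 to 7610 on leaving out single libraries. The 5 ERBB genes called there became 3 without the trend and at 0.01, and 3 to 5 on leaving out single libraries. The causes were not tested.

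Same-numbered replicates did not deviate together (correlations -0.011 to 0.0747 in the knockdown and 0.0159 to 0.0432 in the overexpression), so the numbers were not taken as pairs, although each DU145 library was closest to the one with its own number. With the replicate block 1002 genes were called in the knockdown, EGFR passed there (adjusted p = 0.048) and ERBB3 missed in the overexpression (0.056). On the longest annotated transcript in place of all exon bases, 29 of 40 positions in the order of levels stayed, and EREG and ERBB2 changed places in OE control cells. Low counts limit AREG, EREG and BTC in CWR22Rv1 cells, and spread between replicates limits EGF.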

Other observations

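The genes whose level moved most like each receptor were found from the deviation of the log2 normalised count from the mean of its cell line, over the 12 libraries and among 11816 genes with a mean of at least 50 in both tables. EGFR was closest to SAMHD1 (Pearson r = 0.984), a nucleotide hydrolase, followed by NID1 (0.982), a basement membrane protein, and ATRN (0.981). ERBB2 was closest to the AP-1 subunit FOSL2 (0.977), TEAD3 (0.949) and TXNDC11 (0.92). ERBB3 was closest to DNAJC1 (0.95), M6PR (0.931), which also lies on chromosome 12, and EMB (0.93). The points share the treatment groups and the scaling of their table, so these values are a description with no test.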
